A study of Mus musculus with 2 samples.

Results

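The 9 genes described here encode kinases, or subunits of kinases, of the route that links extracellular calcium, E-cadherin and phosphoinositide signalling in keratinocytes. They are the Src family kinases Fyn and Src, the class I phosphoinositide 3-kinase (PI3K) subunits Pik3ca, Pik3cb and Pik3r1, the lipid kinase Pip5k1a, and the serine/threonine kinases Pdpk1, Akt1 and Akt2. Their probes were found on the array by the symbol in the deposited annotation or by the gene ID. This gave 16 of 25697 probes. Updating the annotation against RefSeq moved 1 of these to another gene and added 2, so that the 9 genes were represented by 17 probes. Of the 9 genes, 5 had a probe above background, beside 47.5% of all gene symbols on the array.

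RNA came from the epidermis of postnatal day 5 mice of strain C57BL6. The control sample was labelled CaSR fl/fl CON and came from littermates that carried the floxed gene of the calcium-sensing receptor (gene Casr). The knockout sample was labelled CaSR fl/fl Cre K14 driven, so that both groups shared the floxed alleles and the groups differed in the Cre recombinase. The keratin 14 promoter that drives the Cre is active in basal keratinocytes and their progeny, so resident immune cells and melanocytes of the epidermis are not its target. RNA of 3 mice was combined for each group and hybridised to 1 Illumina bead array, and the labels used here do not state the sex of the mice.

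With 1 array in each group there was no replicate, and no value below carries an error between samples or a significance test. Precision is limited by the number of arrays. As a scale of precision within the arrays, probes that target the same gene were compared. In the 1840 genes with at least 2 probes detected in both samples, their log2 ratios had a pooled SD of 0.11, and a gap of 2 SDs is a ratio of 1.17-fold. That spread holds no variation between mice, pools or hybridisations. The probe for Casr was not above background in either sample (signal 122.9 (control) and 148.2 (knockout)), so the genotype labels could not be checked with it.

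When extracellular calcium rises, keratinocytes assemble E-cadherin and catenins at cell contacts. Src family kinases phosphorylate catenins there, the regulatory subunit of PI3K is drawn to the complex, and the catalytic subunit converts the membrane lipid PIP2 into PIP3. PIP3 recruits Pdpk1 and Akt to the membrane, where Pdpk1 phosphorylates Akt, and it also helps to activate phospholipase C gamma, which is needed for the calcium release that accompanies differentiation. Most of these steps are controlled by phosphorylation and by position in the cell. The array measured transcript levels alone.

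Of the 9 genes, 4 (Fyn, Pik3ca, Akt1 and Akt2) had no measurable signal and are not compared. Over the whole array, 47.5% of gene symbols were detected, beside 5 of these 9. Of the 5 detected members 0 were at least 1.5-fold apart, beside 0.42% of the 8564 genes detected on the arrays (0.187% higher and 0.234% lower in the knockout sample). At the smaller fold of 1.2, 1 of the 5 was lower, Pdpk1, and 0 were higher, beside 2.95% lower and 2.91% higher among all detected genes (5.86% in either direction). This counts Pdpk1 by its brightest probe. The other Pdpk1 probe was 1.17-fold higher in the knockout sample, so no direction is read for that gene. Of the 5, Src and Pik3r1 had log2 ratios (knockout over control) above 0 and Pik3cb, Pip5k1a and Pdpk1 had ratios below 0. Their ratios ranged from -0.28 to 0.16 with a median of -0.10, and the median of all detected genes was 0.01, with 52.1% above 0. In tissue RNA such as this, fewer cells of a type and less RNA per cell cannot be told apart.

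**Figure D1:**
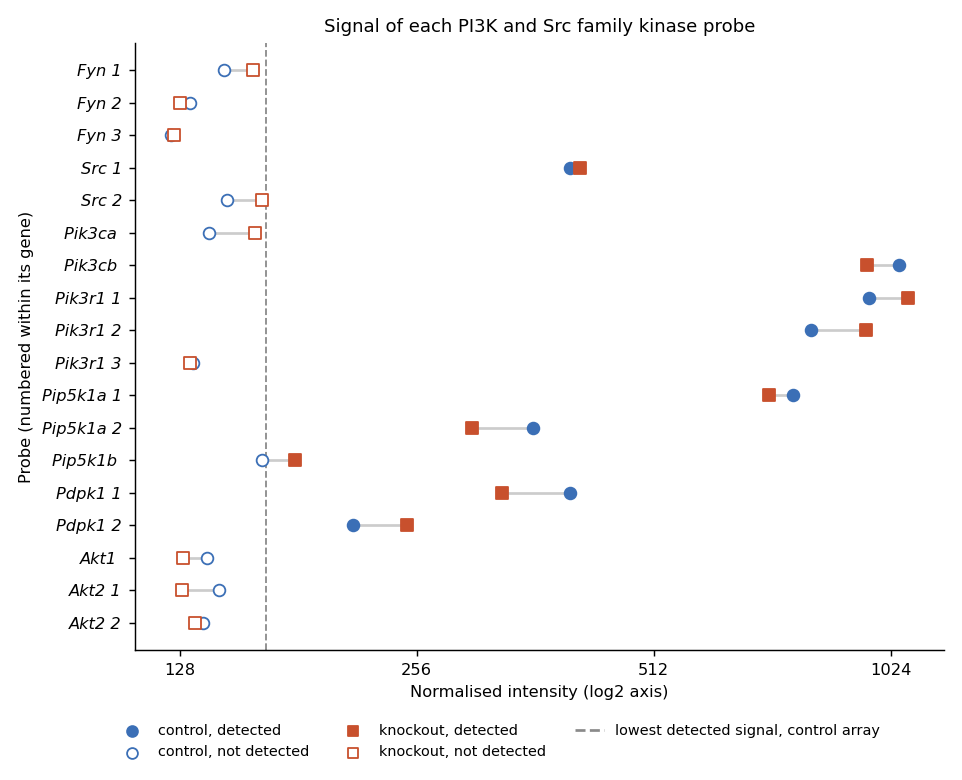
Normalised intensity of each probe of the 9 genes, and of Pip5k1b, in the control sample (circles) and the knockout sample (squares). Filled symbols are above background (detection p-value at most 0.01), and the dashed line is the lowest detected signal of the control array, 164.9. Fyn, Pik3ca, Akt1 and Akt2 have open symbols alone.

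The first kinases of the route are Fyn and Src, tyrosine kinases that lie at the inner face of the membrane. Fyn was represented by 3 probes, and none was above background. Its brightest had a signal of 145.8 (control) and 158.5 (knockout), with detection p-values of 0.0802 and 0.0175. The other probes had 131.9 and 124.9 in the control and 128.0 and 126.0 in the knockout sample. The 3 probes thus lay in the range of the negative control beads in both samples at the threshold of 0.01, and the brightest came nearer to it in the knockout sample. No fold is given for Fyn, and a signal at background sets no level for its transcript.

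Src was detected in both samples by the probe designed on transcript NM_001025395, with a signal of 401.1 (control) and 412.6 (knockout). The ratio of 1.03-fold, a log2 ratio of 0.04, was smaller than the spread between probes of a gene. A second Src probe, designed on NM_009271, was not above background, with signals of 147.1 (control) and 162.7 (knockout) (detection p-values 0.0714 and 0.0113). Src therefore had near-equal signals in both samples on the probe that measured it.

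Among other Src family kinases, Lck was detected, with 252.4 (control) and 266.1 (knockout) (1.05-fold higher). Lck is a Src family kinase of T cells, and the epidermis of mice holds resident T cells. Of the 5 T cell markers, Lck among them, 4 were detected in both samples. Cd3d, Cd3e and Cd3g each had a log2 ratio below 0 (-0.17, -0.14 and -0.07), and with Lck their summed signal was 2535 (control) and 2384 (knockout). Yes1, Fgr, Blk and Frk were not above background in either sample. Frk came nearest, with 155.4 (control) and 163.1 (knockout).

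The enzymes that restrain or assist Src kinases were better covered, with 12 of 17 genes detected and a median log2 ratio of 0.03. Ratios above 0 were found for 7 of them and below 0 for 5, and none reached 1.2-fold. The lowest was Csk, the kinase that phosphorylates the inhibitory tail tyrosine of Src family members, with 796.3 (control) and 679.1 (knockout) (1.17-fold lower). The highest was Ptpra, a receptor phosphatase that removes that phosphate, with 206.3 and 230.3 (1.12-fold higher). Each rests on 1 probe. The Csk log2 ratio of -0.23 lay just beyond 2 SDs of the spread between probes (0.22), and that of Ptpra lay inside it. That spread sets no threshold for a difference between samples. The log2 ratios of all genes detected in both samples had a larger SD, 0.15.

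Class I PI3K is a dimer of a catalytic and a regulatory subunit. The catalytic subunit gene Pik3ca, which encodes the alpha isoform, had 1 probe, which was not above background. In the control sample it gave 139.4 at a detection p-value of 0.193, and in the knockout sample it gave 159.4 at 0.0175. The beta isoform gene Pik3cb was detected in both samples on its single probe, with 1050.5 (control) and 955.1 (knockout). This was 1.10-fold lower in the knockout sample (log2 ratio -0.14), and 13.6% of detected genes had a lower ratio. Pik3cb was thus the catalytic subunit among the members with a measurable signal, and its difference was smaller than 2 SDs of the spread between probes.

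Pik3r1 encodes the alpha regulatory subunit, which stabilises the catalytic subunits and docks on phosphotyrosine. A probe designed on NM_001077495 gave 962.4 (control) and 1076.5 (knockout) (1.12-fold higher, log2 ratio 0.16). A probe designed on NM_011085 gave 811.0 and 953.1 (1.18-fold higher, log2 ratio 0.23). Both detected probes were therefore higher in the knockout sample, and they differed from each other by 0.07 on the log2 scale. The other NM_001077495 probe was not above background (132.9 and 131.9). Of the detected genes, 89.4% had a lower ratio than Pik3r1 on its brightest probe.

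**Figure D2:**
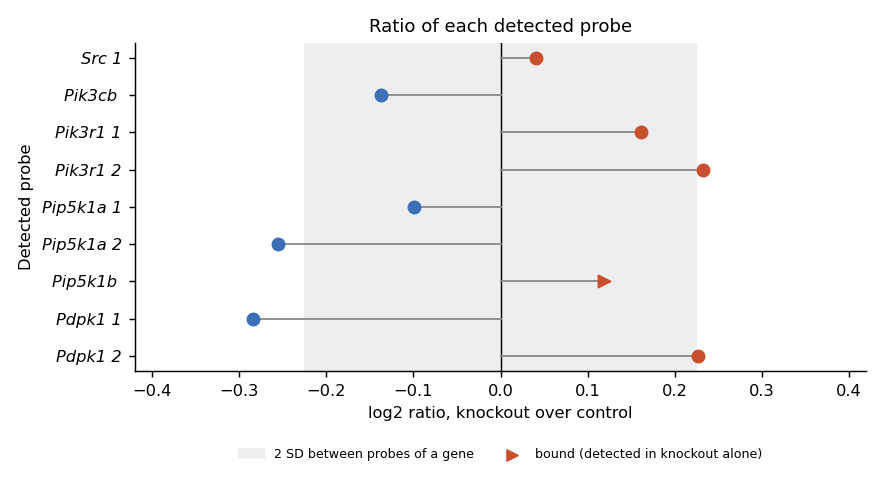
Log2 ratio (knockout over control) of each probe above background in at least 1 sample. The grey band spans 2 SDs of the spread between probes of a gene (0.22 on either side of 0), and the triangle for Pip5k1b is a bound. The Pdpk1 probes lie on opposite sides of 0, while the detected Pik3r1 probes lie on one side, as do those of Pip5k1a.

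The RefSeq promoter table (build GRCm38.p6) holds 2 starts for Pik3r1, which is known to produce a long and shorter regulatory proteins from separate starts. The 150 bases before each are shown because the detected probes report on this gene and the starts differ in composition. Start 1 lies at chr13:101768218-101768367 and start 2 at chr13:101692631-101692780, both on the minus strand, 5′ to 3′. Capitals mark matches, on either strand, to the GC box GGGCGG, to the box named after its letters CCAAT, to the TATA box with the letters TATAAA, to an AP-1 site read as TGANTCA or to a FOXO site read as TGTTTAC.
Pik3r1 start 1: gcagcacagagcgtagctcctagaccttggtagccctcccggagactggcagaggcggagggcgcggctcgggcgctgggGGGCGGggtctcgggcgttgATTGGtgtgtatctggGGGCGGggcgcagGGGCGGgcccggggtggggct
Pik3r1 start 2: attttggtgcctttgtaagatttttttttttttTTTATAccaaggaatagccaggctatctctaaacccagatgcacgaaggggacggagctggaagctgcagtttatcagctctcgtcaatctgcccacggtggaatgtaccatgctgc
The window of start 1 had a GC content of 74.0% with 3 GC boxes and 1 CCAAT box. That of start 2 had a GC content of 44.7% with 1 match to the TATA box and none to the other motifs. A match is a run of letters and not a shown binding site, and the files do not say which start the detected transcripts used.

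Other class I subunits showed small differences in both directions. The regulatory subunit gene Pik3r2 had 586.5 (control) and 539.5 (knockout) (1.09-fold lower), but its other probe had a log2 ratio of 0.11. Pik3r3, a further regulatory subunit gene, had 555.8 and 592.9 (1.07-fold higher). Pik3cg, the gamma catalytic subunit known from leukocytes, was detected in the knockout sample alone (183.8, beside 157.2 in the control sample). Its bound of 1.11-fold higher rests on 1 probe near background, where such a bound is small by construction. No size of difference is read from it. Pik3cd, Pik3r5 and Pik3r6 were not above background. Over the list, 5 of 9 genes were detected, 3 with ratios above 0 and 2 below 0, and the median was 0.09. Markers of Langerhans and myeloid cells, which also use Pik3cg and Pik3cd, were detected for 5 of 5 genes, all with ratios above 0 on their brightest probe, with a summed signal of 7345 (control) and 7653 (knockout). Other probes of Cd74, Cd207 and Csf1r had ratios below 0 (-0.06, -0.02 and -0.15). Their part in the Pik3cg value was not tested.

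Pip5k1a encodes a type I phosphatidylinositol 4-phosphate 5-kinase, which makes the PIP2 that PI3K and phospholipase C use. The deposited annotation and RefSeq disagree on which probes belong to it. The probe that the file lists as Pip5k1a was designed on NM_008846, which RefSeq assigns to Pip5k1b, and the 2 probes that the file lists as Pip5k1b were designed on NM_008847, which RefSeq assigns to Pip5k1a. The current assignment is used here, and both readings are given.

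By the current names, Pip5k1a was detected in both samples by both probes. The brighter gave 769.1 (control) and 717.8 (knockout) (1.07-fold lower, log2 ratio -0.10), and the other gave 359.3 and 301.0 (1.19-fold lower, log2 ratio -0.26). Pip5k1b was detected in the knockout sample alone, with 179.1 beside 162.7 in the control sample. Its bound of 1.09-fold higher rests on 1 probe near background, where such a bound is small by construction. No size of difference is read from it. The file's own symbols would thus turn the sign for Pip5k1a, from -0.10 to a bound of 0.12 in log2 ratio. Both detected Pip5k1a probes were less than 1.2-fold apart as deposited, but with background correction the dimmer one had a log2 ratio of -0.43. The Pip5k1b value is a lower bound, and it was 0.38 with background correction.

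The wider group of kinases that make PIP2 and its precursor held 9 detected genes of 11, 5 with ratios above 0 and 4 below, and a median of 0.06. The type II kinase genes Pip4k2a, Pip4k2b and Pip4k2c, which act on a rarer isomer of the lipid, all had ratios above 0 (0.20, 0.17 and 0.12). The phosphatidylinositol 4-kinase genes were divided. Pi4k2a had 1020.8 (control) and 787.0 (knockout) and was 1.30-fold lower on its single probe, and it was the list's one gene past 1.2-fold. Pi4ka and Pi4kb were 1.11-fold and 1.14-fold lower, while Pi4k2b had a log2 ratio of 0.06. Pip5k1c and Pip5kl1 were not above background. Of the class II and III PI3K genes, Pik3c2a and Pik3c3 were detected, with log2 ratios of 0.05 and 0.09, and Pik3c2g and Pik3r4 were not.

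Pdpk1 encodes the kinase that phosphorylates the activation loop of Akt. Its 2 probes were both above background in both samples and pointed in opposite directions. The brighter, designed on NM_011062, gave 400.4 (control) and 328.8 (knockout), and was 1.22-fold lower in the latter (log2 ratio -0.28). The other, designed on NM_001080773, gave 212.4 (control) and 248.6 (knockout), and was 1.17-fold higher (log2 ratio 0.23). The first of these values is the one that counted as lower at 1.2-fold above.

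The gap between the Pdpk1 probes, 0.51 on the log2 scale, was wide for this array pair. Of 1840 genes with at least 2 probes detected in both samples, 9 (0.489%) had a range as wide or wider. For comparison, the range was 0.07 for Pik3r1, which 70.9% of the genes reached, and 0.16 for Pip5k1a, which 38.9% reached. The opposed signs were present before normalisation as well, where the first probe had intensities of 467.8 (control) and 404.5 (knockout) and the second had 233.3 (control) and 292.3 (knockout). After background correction the log2 ratios were -0.44 and 0.49. No direction for the gene as a whole can be read from these values, and the mean of both probes was -0.03. Whether the probes measure different transcripts of Pdpk1 was not tested.

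Pdpk1 also has 2 starts in the RefSeq promoter table, and the 150 bases before each are shown because the probes of this gene disagree. Start 1 lies at chr17:24150923-24151072 and start 2 at chr17:24141595-24141744, on the minus strand, with capitals as above.
Pdpk1 start 1: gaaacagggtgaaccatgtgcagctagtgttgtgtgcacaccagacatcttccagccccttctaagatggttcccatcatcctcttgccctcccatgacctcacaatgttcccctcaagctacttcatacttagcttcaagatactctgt
Pdpk1 start 2: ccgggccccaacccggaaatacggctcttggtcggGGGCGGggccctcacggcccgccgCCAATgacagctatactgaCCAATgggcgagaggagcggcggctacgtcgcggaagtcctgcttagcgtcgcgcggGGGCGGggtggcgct
Start 1 had a GC content of 48.7%, no CpG and none of the 5 motifs. Start 2 had a GC content of 71.3%, 20 CpG dinucleotides, 2 GC boxes and 2 CCAAT boxes. The files do not link either probe to either start.

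Across the 9 genes the table held 15 starts. A GC box was found before 7 of them, 1 start each in 7 genes, beside 28.6% of all 32851 promoters in the table, 52.3% of those of genes detected on the array and 29.4% of those of genes on the array that were not detected. The CCAAT box was found before 5 (24.5% of all promoters), a TATA box before 1 (7.57%), an AP-1 site before 1, that of Pik3ca (4.24%), and a FOXO site before 0 (1.8%). The GC content of the 15 windows ranged from 44.0% to 86.7% with a median of 60.7%, and the median was 54.0% over all promoters and 62.7% over those of detected genes. The gene with the AP-1 letters, a motif bound by Fos and Jun proteins, was not above background on the array.

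Akt1 and Akt2 encode the kinases that Pdpk1 activates and that phosphorylate regulators of growth and survival. None of their 3 probes was above background. The Akt1 probe gave 138.6 (control) and 129.4 (knockout) (detection p-values 0.208 and 0.568). The Akt2 probes gave 143.5 and 136.9 in the control and 128.9 and 133.9 in the knockout sample. All 3 had a lower signal in the knockout sample after normalisation, within the range of the negative controls, where no difference can be measured. Before normalisation, the Akt2 probe with 136.9 in the control was not lower, with 146.5 (control) and 146.8 (knockout). For Akt1 and Akt2 the array therefore gave no measurement at the transcript level.

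**Figure D3:**
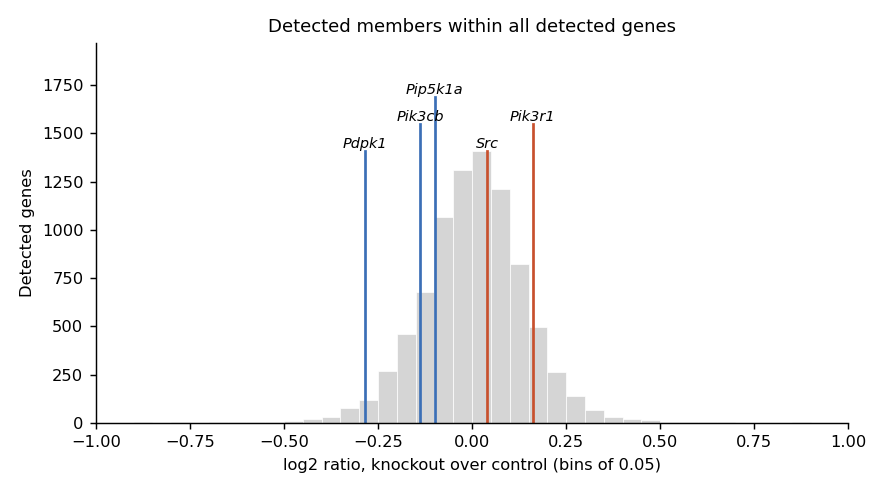
Histogram of log2 ratios (knockout over control, bins of 0.05) for the 8564 detected genes, of which 9 lie outside the range drawn. Vertical lines mark the 5 detected members by their brightest probe. Pdpk1 at -0.28 lies towards the lower tail, and the other 4 lie between -0.14 and 0.16. The other Pdpk1 probe, not drawn here, had a log2 ratio of 0.23.

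Of the 9 undetected probes of the members, 3 had a detection p-value between 0.01 and 0.05 in the knockout sample and 0 did in the control sample. They were the brightest Fyn probe, the Pik3ca probe and the second Src probe. Among all 14379 probes detected in neither sample, 745 (5.18%) were at or under 0.05 in the knockout sample alone and 617 (4.29%) in the control sample alone. With the threshold at 0.05, Fyn and Pik3ca would count as detected in the knockout sample alone, each with a bound of 1.05-fold. A bound this near background is small by construction and gives no size of difference. No direction is read from it. For Fyn it rests on 1 of 3 probes. The other Fyn probes gave 131.9 and 124.9 in the control and 128.0 and 126.0 in the knockout sample.

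The kinase complex that phosphorylates the hydrophobic tail of Akt was detected with near-equal signals. Mtor, the kinase, had 445.9 (control) and 463.1 (knockout) (1.04-fold higher), and its partners Rictor, Mapkap1 and Mlst8 had log2 ratios of -0.01, -0.02 and 0.06. Phosphatases that oppose PI3K and Akt likewise differed little, with 8 of 12 genes detected, 3 above 0 and 5 below, and a median of -0.03. The lowest ratio was that of Ppp2r1a, the scaffold subunit of protein phosphatase 2A, with 2343.9 and 2018.4 (1.16-fold lower). The highest was that of Inpp5e, an inositol phosphatase, with 226.4 and 255.4 (1.13-fold higher).

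Of 16 genes on the list of Akt substrates and TORC1 components 10 were detected, 8 with ratios below 0 and 2 above, and the median was -0.08, beside 47.5% below 0 and a median of 0.01 for all detected genes. Of the 8, Gsk3b had equal signals within rounding (280.9 and 280.8), and Gsk3a, detected in the control sample alone, has a bound. The translation repressor gene Eif4ebp1 had 1021.0 (control) and 807.4 (knockout) (1.26-fold lower). Rheb, the small GTPase that activates TORC1, had 1419.3 and 1720.7 (1.21-fold higher). These were the list's genes past 1.2-fold. Cdkn1a, a cell cycle inhibitor that Akt phosphorylates, gave 3802.7 (control) and 3346.3 (knockout) on its brightest probe (1.14-fold lower), and its other probes had log2 ratios of -0.37 and -0.36. Foxo1, a transcription factor that Akt excludes from the nucleus, was 1.14-fold lower (560.2 and 491.4). With intensities before normalisation scaled to the same median, 6 of the 10 were below 0 and 4 above. The list's median was -0.15 with background correction, and with detection at a p-value of at most 0.05 it was -0.02 over 13 genes, 9 of them below 0.

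Upstream, all 6 detected genes of 7 of the E-cadherin complex had ratios above 0 on their brightest probe, with a median of 0.12, beside 52.1% above 0 among all detected genes. Of the 6, 5 lay within 2 SDs of the spread between probes (0.22), and Ctnnb1 lay beyond it, which is no test of a difference between samples. The count of 6 above 0 was the same under each of the 7 processing alternatives. Removing the floor, the detection threshold of 0.05 and the file's symbols left the median of these genes unchanged. All alternatives reuse the same 2 arrays, so the constant count is no independent evidence of a difference. Cdh1, which encodes E-cadherin, had 1373.8 (control) and 1506.0 (knockout) (1.10-fold higher). The highest ratio was that of Ctnnb1, which encodes beta-catenin, with 2491.4 and 3177.1 (1.28-fold higher, and 0.20 in log2 ratio on its other probe), and the lowest was Jup, plakoglobin, at 0.04. Ctnnd1 was not above background. With 1 sample in each group, neither this list nor that of the Akt substrates was tested against other genes.

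**Figure D4:**
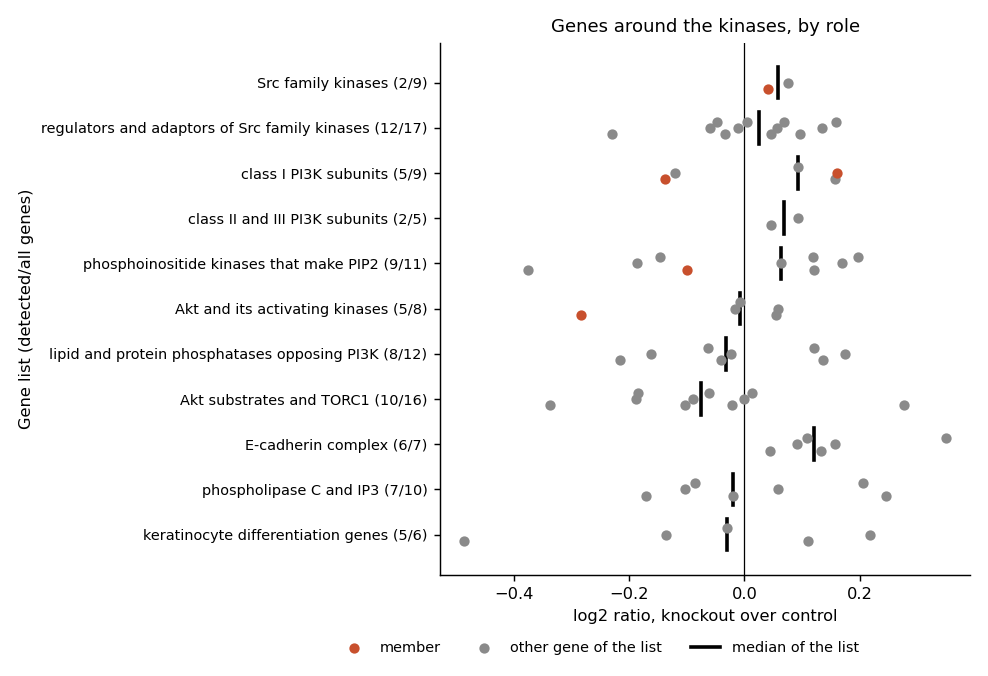
Log2 ratio (knockout over control) of each detected gene of the lists around the kinases whose genes are described here, with members in red, other genes in grey and list medians as black bars. All dots of the E-cadherin complex lie to the right of 0, and most of those of the Akt substrates lie to the left.

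Phospholipase C and IP3 genes, which carry the signal from PIP2 to calcium release, were divided, with 7 of 10 detected, 3 above 0 and 4 below. Plcb3 was the highest (878.9 (control) and 1042.7 (knockout), 1.19-fold higher), and Itpr2, an IP3 receptor, the lowest (1373.0 and 1220.1, 1.13-fold lower). Plcg1, the isoform that PIP3 activates in keratinocytes, was not above background, and Plcg2 had a log2 ratio of 0.06. Of the keratinocyte differentiation genes 5 were detected, 2 above 0 and 3 below, with a median of -0.03. Krt10 and Krt1, keratins of the suprabasal layers, had log2 ratios of 0.22 and 0.11. The cornified envelope genes Lor and Ivl and the transglutaminase gene Tgm1, which crosslinks the envelope, had -0.03, -0.49 and -0.14.

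Over all 12 lists, 1 of which is not described here, 77 of 120 genes were detected, 41 with ratios above 0 and 36 below, and the median was 0.02. At least 1.2-fold higher were 2 genes (Ctnnb1 and Rheb). At least 1.2-fold lower were 4 (Pdpk1 on its brightest probe, Pi4k2a, Eif4ebp1 and Ivl). Together these are 7.79% of the detected genes of the lists, beside 5.86% of all detected genes, and none was 1.5-fold apart. Without the members the share was 6.94% of 72 detected genes. The other Pdpk1 probe was higher in the knockout sample.

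The labelled tissue was checked against marker genes. Keratinocyte markers were detected for 5 of 6 genes with a summed signal of 66290 (control) and 64233 (knockout), and no probe was matched to the sixth, Dsp. The members of this sum were divided. The basal keratin genes Krt5 and Krt14 were lower in the knockout sample (log2 ratios -0.28 and -0.20, for Krt5 1.22-fold), and Krt1, Krt10 and Trp63 were higher (0.11, 0.22 and 0.17). Melanocyte markers were detected for 4 of 4 genes with sums of 4115 and 4121. Of fibroblast markers 2 of 6 were detected (sums 688.9 and 672.0), with Col1a2, Col3a1, Lum and Pdgfra not above background, and of endothelial markers 1 of 4 (227.1 and 233.1), with Pecam1, Cdh5 and Kdr not above background. Markers of hair follicle keratinocytes were detected for 4 of 5 genes, and their sum was lower in the knockout sample (16719 beside 20571). Krt31, Krt71 and Krt27 were lower (log2 ratios -0.32, -0.40 and -0.21), while Shh was 1.30-fold higher (196.1 (control) and 255.7 (knockout)). The part of cell composition in the ratios of the kinase genes was not tested.

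**Figure D5:**
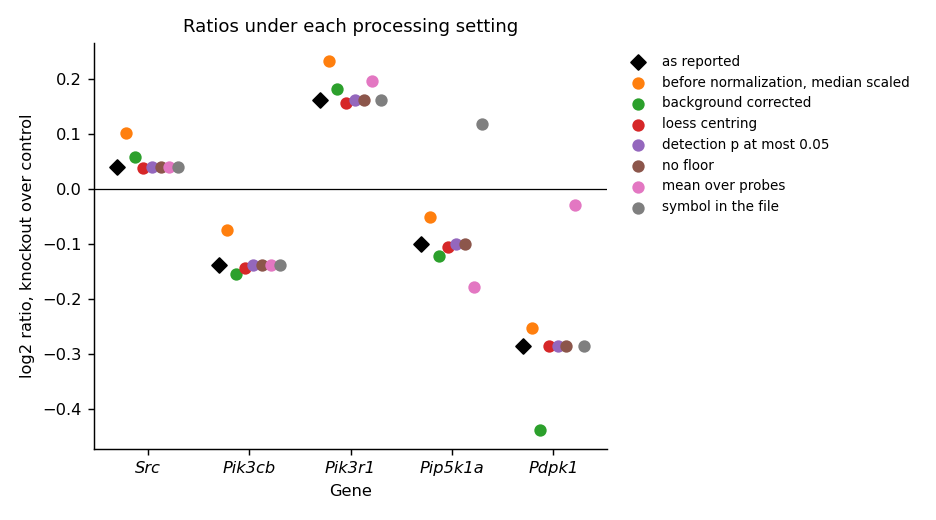
Log2 ratio (knockout over control) of the 5 detected members as reported (black diamonds) and under each of 7 alternatives (coloured circles). Src and Pik3r1 stay above 0 and Pik3cb below 0 throughout, and Pip5k1a lies at 0.12 under the file's own symbols. Pdpk1 moves between -0.44 and -0.03, with each value but the mean over probes taken from its brightest probe. Its other detected probe, not drawn alone, had a log2 ratio of 0.23 as reported, so no direction is shown for Pdpk1.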

How the data were processed

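Each group's pooled RNA of 3 mice was labelled with biotin and hybridised to an Illumina bead array, per the labels' protocols, and the submitters' processing notes name GenomeStudio 2011.1. The authors deposited linear intensity before and after normalization and a detection p-value for each probe and sample, per the file headers. How the normalization was done is not given here. The medians were 161.3 and 166.1 before it and 148.9 in both samples after it, and the lowest intensity of 106.2 shows that background was not subtracted, which draws ratios of dim probes towards 1.

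A probe was detected at a detection p-value of at most 0.01 (10888 probes for the control, 10802 for the knockout). Intensities were raised to the lowest detected signal of the array (164.9 and 165.9), and log2 ratios are knockout minus control. The detected probe with the highest mean intensity stood for a gene, and a gene detected in 1 sample has a bound. Names were updated by gene ID, then accession, against RefSeq (GRCm38.p6), which matched 24358 probes. Named genes are the members, the highest and lowest of each list, close family members, and others chosen after their values were seen. The members and lists were chosen with earlier results of these data known. With 1 sample a group no test was made, and the procedure was tested on simulated data. Probe sequences were not used here, and promoters are RefSeq's. limma 3.58.1 made the background correction (offset 16). A protocol sentence mentions a VDR knockout, and the genotype labels were followed instead. Results for a few genes of the lists and for 1 list are not reported here, though their genes are in the counts.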

Additional observations from a re-analysis of the deposited data

How the results depend on the processing

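Among the values for the 5 detected members, their median and their counts past a fold, 49 of 56 recomputed values stayed within the spread between probes or at the same count, and 7 did not. Many of these could not change. The floor and the detection threshold left the ratios of all 5 members as they were, and the file's symbols changed that of Pip5k1a alone. The mean over probes could not change Src and Pik3cb, with 1 detected probe each. Such counts, here and for the lists, are therefore no measure of stability. The Pdpk1 log2 ratio went from -0.28 to -0.44 with background correction and to -0.03 with the mean over its probes. With the symbol in the file, Pip5k1a went from -0.10 to 0.12 through the swapped probes, and the median of the members from -0.10 to 0.04. The median was also 0.04 with detection at a p-value of at most 0.05, where 7 members counted. The count of members at least 1.2-fold apart went from 1 to 0 on median-scaled intensities from before normalization and with the mean over probes. Of the list medians and single probes, 106 of 111 recomputed values stayed within that spread. Among all genes, background correction gave 903 genes at least 1.2-fold higher and 876 lower, beside 249 and 253 as reported, and median scaling gave 562 and 174. Signals at background limit Fyn, Pik3ca, Akt1 and Akt2, for which neither a fold nor an absence can be stated. No paired analysis was possible because each group has 1 sample, and leaving out a sample was not possible for the same reason.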

Other observations

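Promoter windows differed between genes with and without a signal on the array. Of 8561 promoters of detected genes, 52.3% held a GC box in the 150 bases before the start, compared with 29.4% of 8340 promoters of genes on the array that were not detected. A TATA box was found in 3.99% and 9.66%, and the median GC content was 62.7% and 54.7%. A gene can have several promoters here, and promoters are not independent replicates.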
